A study of Arabidopsis thaliana with 3 samples.

Results

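Tetraspanin genes of Arabidopsis thaliana were compared between the light-signalling mutant hy5-1 and its wild type Landsberg erecta (Ler) after cold treatment. The genes were taken by name: every gene of the array's annotation whose symbol is TET followed by a number. This gave 8 genes, TET2, TET3, TET6, TET7, TET9, TET10, TET14 and TET15, among 7234 named loci. The RefSeq gene table (assembly TAIR10.1) lists 17 genes of the family. The other 9 were not analysed here, among them TRN2 (TET1), the family member known for leaf and root patterning, and TET8.

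Tetraspanins are small membrane proteins that cross the membrane 4 times and expose a large extracellular loop held together by disulfide bonds. They bind each other and other membrane proteins and so assemble membrane microdomains. In Arabidopsis, TET8 and its close relative TET9 mark extracellular vesicles that carry small RNAs, and TET5 and TET6 act redundantly in restraining the growth of leaves and roots. HY5 is a bZIP transcription factor that acts downstream of the photoreceptors and binds promoters of light-regulated genes.

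The tested plants carried hy5-1, a loss-of-function allele in the Ler background, and the plants they were set against were Ler. Both had grown in pots for 3 weeks at 22 °C with 16 h of light and 8 h of darkness, followed by 1 day at 4 °C, so all RNA came from the cold and no warm control was on these arrays. The labels name no organ. Each of 3 biological replicates was a two-colour array with hy5-1 RNA in Cy5 and Ler RNA in Cy3, so the dye and the genotype cannot be told apart. Ratios are given as log2 of hy5-1 over Ler, so that a positive value means a higher transcript level in hy5-1. This is the likely direction: it follows the usual Cy5 over Cy3 ratio, but the numerator is not stated in the labels or the table, the sample titles name Ler first, and under the opposite reading every direction below turns.

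Each of the 8 genes was measured by 1 feature per array, and the ratio gives no absolute level, so the genes can be ordered by their difference between genotypes but not by their abundance. A lower ratio of a transcript can come from fewer cells of a type or from less RNA per cell, and these cannot be told apart in whole samples. The link from gene names to values rests on a reordering of the feature numbers, which was found from the values themselves. For 7 genes with 10 or more features each, it brought the variance among features of a gene to 0.0863 of the variance over all those features, against 0.987 with the numbers used as given. These figures come from the same values, so they are not an independent check of the reordering. The TET genes, with 1 feature each, cannot be checked in this way. With the numbers as given, which assigns other features to the names, 1 of 8 TET genes passed, TET6 as lower at -0.64 (limma adjusted p = 0.0251), beside 6.79% of loci, and TET7 did not pass at -0.30. Over all named loci, array 2 correlated with arrays 1 and 3 at r = 0.512 and 0.504, and arrays 1 and 3 with each other at 0.759 (across genes, which are not independent replicates).

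TET7 and TET6 were higher in hy5-1 than in Ler, and the other 6 genes did not pass the test. No gene reached a 2-fold difference, so the count was 0 of 8, beside 2.43% of all loci. TET7 (AT4G28050), which belongs to the same branch of the family as TET8 and TET9, had log2 ratios of 0.55, 0.52 and 0.58 on arrays 1, 2 and 3. In the values as deposited, all 3 arrays gave nearly the same ratio. With the arrays scaled to the same median absolute deviation, the SD of TET7 was 0.112 instead of 0.03. Its mean of 0.55 ± 0.03 (SD, n = 3) corresponds to a 1.46-fold higher level in hy5-1, with a 95% interval of 0.32 to 0.78 on the log2 scale and a limma adjusted p of 0.0243.

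TET6 (AT3G12090), the partner of TET5 in leaf and root growth, had log2 ratios of 0.44, 0.47 and 0.50. As for TET7, each array put hy5-1 above Ler. The mean of 0.47 ± 0.03 (SD, n = 3) was a 1.39-fold higher level, with a 95% interval of 0.24 to 0.70 and a limma adjusted p of 0.0315. TET5 itself was not analysed here.

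Thus 2 of 8 genes rose and 0 fell. Over all named loci 17.2% passed the threshold, 7.88% as higher and 9.29% as lower in hy5-1. With 8 genes, 2 calls are not read as a property of the family. At an unadjusted limma p under 0.05 there were the same 2 genes, beside 36.3% of all loci. Both calls ended when all arrays were given the same median absolute deviation, with limma adjusted p-values of 0.0505 for TET7 and 0.0607 for TET6, while the means were 0.557 and 0.48. In that setting 5.41% of loci passed, and the smallest adjusted p of any locus was 0.0494. Without replicate 1 and without replicate 3, 0 of 7234 loci passed and these 2 genes had limma adjusted p-values from 0.185 to 0.201, with means of 0.55 and 0.535 for TET7 and 0.485 and 0.455 for TET6, whereas without replicate 2 TET7 had 0.0357 and TET6 0.0469 and 19.1% of loci passed.

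**Figure D1:**
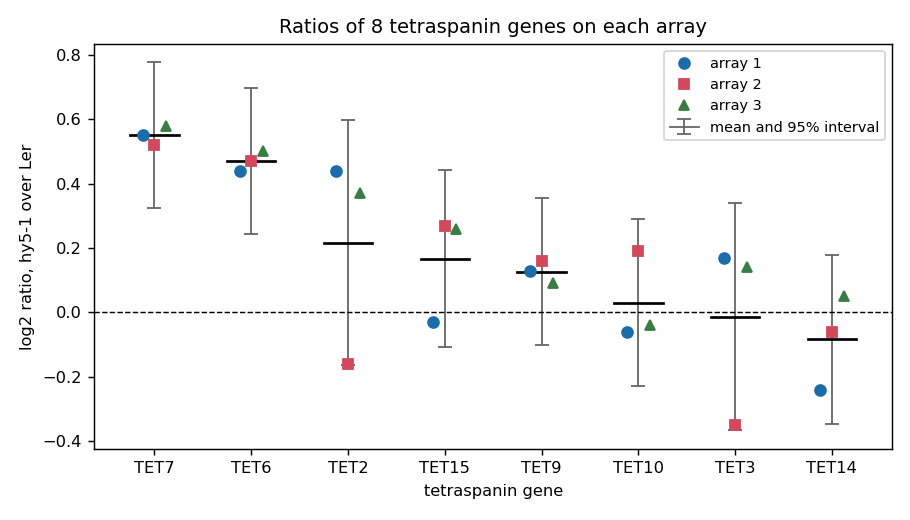
Log2 ratio of hy5-1 over Ler (vertical axis) for the 8 tetraspanin genes, ordered by their mean (horizontal axis), with a symbol for each of the 3 arrays, a short black line at the mean and grey bars for limma's 95% interval. The 3 points of TET7 lie between 0.52 and 0.58 and those of TET6 between 0.44 and 0.50, while TET2 and TET3 have array 2 below 0 and arrays 1 and 3 above it.

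TET9 (AT4G30430), the extracellular vesicle marker related to TET8, had ratios of 0.13, 0.16 and 0.09. It stayed on the side of hy5-1 on every array, but close to 0. The mean was 0.13 ± 0.04 (SD, n = 3), with a 95% interval of -0.10 to 0.35 and a limma adjusted p of 0.372. This is limma's interval, whose width draws on the spread shared by all loci, and it covered 0. With the unmoderated statistic TET9 had an unadjusted p of 0.0247 and an adjusted p of 0.188. In that setting 1625 of 7234 loci had an unadjusted p under 0.05, and 0 passed after adjustment. TET7 exceeded TET9, a pair set side by side after their values were seen, by 0.42, 0.36 and 0.49 on the 3 arrays, a mean of 0.42 ± 0.07 (SD, n = 3) on the log2 scale. An exact sign-flip permutation test (two-sided) of 3 arrays cannot give a p below 0.25, and this pair had that value.

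TET2 (AT2G19580) had ratios of 0.44, -0.16 and 0.37, so that hy5-1 was higher on arrays 1 and 3 and lower on array 2. Its mean of 0.22 ± 0.33 (SD, n = 3) was smaller than its spread, and its limma adjusted p was 0.362. Array 2 minus the mean of arrays 1 and 3 was -0.565. Without replicate 2 the mean was 0.405, which did not pass either (limma adjusted p = 0.0602).

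TET3 (AT3G45600), a protein found at plasmodesmata, showed the same split, with ratios of 0.17, -0.35 and 0.14. Array 2 minus the mean of arrays 1 and 3 was -0.505. The mean was -0.01 ± 0.29 (SD, n = 3), with a 95% interval of -0.37 to 0.34 and a limma adjusted p of 0.961, and without replicate 2 it was 0.155 (adjusted p = 0.32). The direction of TET3 is therefore set by array 2.

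In TET10 (AT1G63260) array 2 was the highest. TET10 had -0.06, 0.19 and -0.04, averaging 0.03 ± 0.14 (SD, n = 3; adjusted p = 0.874 by limma). Without replicate 2 its mean was -0.05. TET15 (AT5G57810) had -0.03, 0.27 and 0.26, so array 1 stood apart from the other 2 arrays, and its mean was 0.17 ± 0.17 (SD, n = 3; adjusted p = 0.333 by limma). TET14 (AT2G01960) had -0.24, -0.06 and 0.05, averaging -0.08 ± 0.15 (SD, n = 3; adjusted p = 0.633 by limma). In these 3 genes the arrays fell on both sides of 0, and their 95% intervals ran from -0.35 at the lowest, for TET14, to 0.44 at the highest, for TET15.

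Taken by sign, 3 of the 8 genes were above 0 on all arrays (TET6, TET7 and TET9), 0 were below 0 on all arrays and 5 had both signs. Of all named loci, 54.5% had 1 sign on all 3 arrays, 27% above 0 and 27.5% below 0. On array 2, TET9, TET10 and TET15 (3 genes) had their highest ratio and TET2, TET3 and TET7 (3 genes) their lowest. Some of these gaps were small, such as 0.27 against 0.26 on array 3 for TET15. Among all named loci, 35.7% had array 2 above both other arrays and 37.9% below both. The counts on array 2 are therefore not read as a property of the family.

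Ordered by mean log2 ratio, the genes ran TET7, TET6, TET2, TET15, TET9, TET10, TET3 and TET14. Of the 7 pairs of neighbours in this order, 1 kept its direction on every array, TET7 over TET6, by 0.11, 0.05 and 0.08. That difference, 0.08 ± 0.03 (SD, n = 3), again had the smallest exact permutation p that 3 arrays allow, 0.25 (two-sided sign-flip test). In the other pairs the order changed or was level on at least 1 array. The order was set from these same 3 arrays, so the mean difference of each pair was positive by construction. Neither the kept direction nor the test can therefore decide whether a rank holds. These differences are between ratios of different probes, each with its own dye effect.

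The genes also differed in their spread between arrays. SDs ran from 0.03 for TET6 and TET7 and 0.04 for TET9 to 0.29 for TET3 and 0.33 for TET2. The median SD was 0.143 over the 8 genes and 0.191 over all loci. An SD of 0.03 or less was found in 2.71% of named loci, and values are deposited to 2 decimals. The arrays were unequal in their own spread, with scaled median absolute deviations of 0.2076, 0.1334 and 0.1927 for arrays 1, 2 and 3. With arrays scaled to the same median absolute deviation, the SD was 0.112 for TET7 and 0.125 for TET6. When the loci of highest SD were left out before the fit, TET2 among them, 2 of the 7 TET genes left passed, TET6 and TET7, beside 42.8% of loci. This filter uses the SD of the same arrays and lowers the common spread by construction, so it adds no support to the 2 calls. The median of the 8 means was 0.147, against 0 over all loci. A mean at or above that of TET7 was found in 6.37% of loci, and one at or above that of TET6 in 9.12%.

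**Figure D2:**
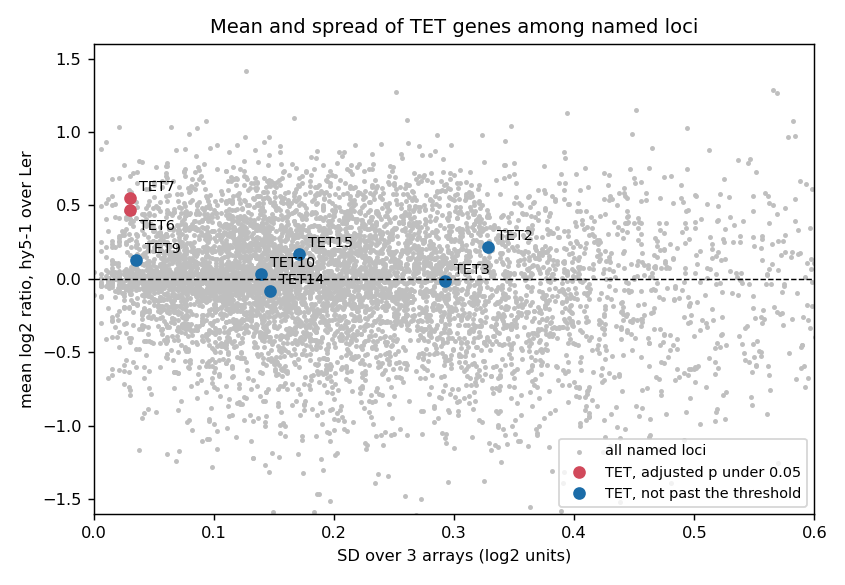
Mean log2 ratio of hy5-1 over Ler (vertical axis) against the SD over 3 arrays (horizontal axis, log2 units), with grey points for named loci, red for TET genes past the threshold and blue for the others; 314 loci lie outside the plotted range. TET7 and TET6 sit at an SD of 0.03 with means of 0.55 and 0.47, TET9 has a like SD at a mean of 0.13, and TET2 and TET3 have the widest spread of the 8 genes.

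The surroundings of the tetraspanin spots on the slide were close to 0. The median ratio of the spots within 5 rows and 5 columns of each gene's feature ran from -0.03 to 0.06 over the 8 genes and 3 arrays. After this local median was subtracted, TET7 had a mean of 0.52 (limma adjusted p = 0.0264) and TET6 one of 0.49 (adjusted p = 0.0281), and 18.3% of loci passed.

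Genes next to the tetraspanin genes on the chromosomes were also looked at. Within 3 protein-coding genes on either side, as ordered in the RefSeq table, 11 loci were measured, and 0 of 11 passed by limma, with adjusted p-values from 0.0591 upward and means from -0.43 to 0.35. Over all loci 17.2% passed, so a count of 0 among 11 is not read as a property of these neighbours. Beside TET6, ACT11 (AT3G12110), an actin gene 2 genes away, had ratios of -0.04, 0.09 and -0.09. Beside TET7, AT4G28030 had a mean of 0.15 ± 0.27 (SD, n = 3) and AT4G28070 one of 0.02 ± 0.16 (SD, n = 3).

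Loci most like the 2 genes were found by Euclidean distance over the 3 ratios. The nearest to TET7 were AT4G26480, AT5G18390 and AT5G58390, at distances of 0.03, 0.04 and 0.0412. The nearest to TET6 were AT4G32640, AT3G14600 and AT5G48970, at 0.0374, 0.064 and 0.064. TET6 and TET7 were 0.145 apart. As many as 36 loci were closer to TET7 than TET6 was, and 75 loci closer to TET6 than TET7 was, so with 3 arrays the likeness of the pair was shared by many genes.

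The exocyst tethers vesicles at the plasma membrane before fusion. Its genes were listed as other membrane-traffic genes, and a link between them and the tetraspanins was not tested. Of 13 exocyst genes listed under their RefSeq names, 5 were measured: 0 were higher and 1 was lower in hy5-1. SEC15B (AT4G02350), whose yeast counterpart binds the Rab GTPase of the vesicle, had ratios of -0.81, -0.85 and -0.50, below 0 on each array. Its mean was -0.72 ± 0.19 (SD, n = 3), and limma gave an adjusted p of 0.0235 for this 1.65-fold lower level. SEC15B lost its call with scaled arrays (limma adjusted p = 0.0596), where 5.41% of loci passed. It also lost it without replicate 1 (limma adjusted p = 0.185) and without replicate 3 (0.184), where 0 of 7234 loci passed. Without replicate 2 the call stayed (limma adjusted p = 0.0401), beside 19.1% of loci.

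The remaining subunits did not pass. SEC6 had ratios of -0.41, -0.35 and 0.09, SEC3A -0.33, 0.13 and -0.10, and SEC5B -0.22, 0.14 and -0.07. EXO84B had 1.12, -1.57 and 0.63, with array 2 far below 0 and the other arrays above it, and its mean of 0.06 ± 1.43 (SD, n = 3) was far smaller than its spread. Without replicate 2, the array that went the other way, EXO84B passed as higher (limma adjusted p = 0.037). In that setting 19.1% of all loci passed. The median of the 5 means was -0.10, against 0 over all loci, and the 1 call compares with 17.2% of all loci called.

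The other lists held no measured gene under its RefSeq name: extracellular vesicle and small RNA cargo proteins, membrane microdomain scaffolds, plasmodesmata proteins, leaf patterning partners of TET1, further tetraspanin relatives without a TET symbol, and leaf markers. Of the organ markers, the root hair expansin EXPA18 had a mean of 0.06 ± 0.06 (SD, n = 3) and the pollen pectin methylesterase VGD1 one of -0.03 ± 0.02 (SD, n = 3), neither past the threshold (limma adjusted p = 0.683 and 0.835). Ratios near 0 of these 2 markers do not show whether roots or flowers were in the samples.

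**Figure D3:**
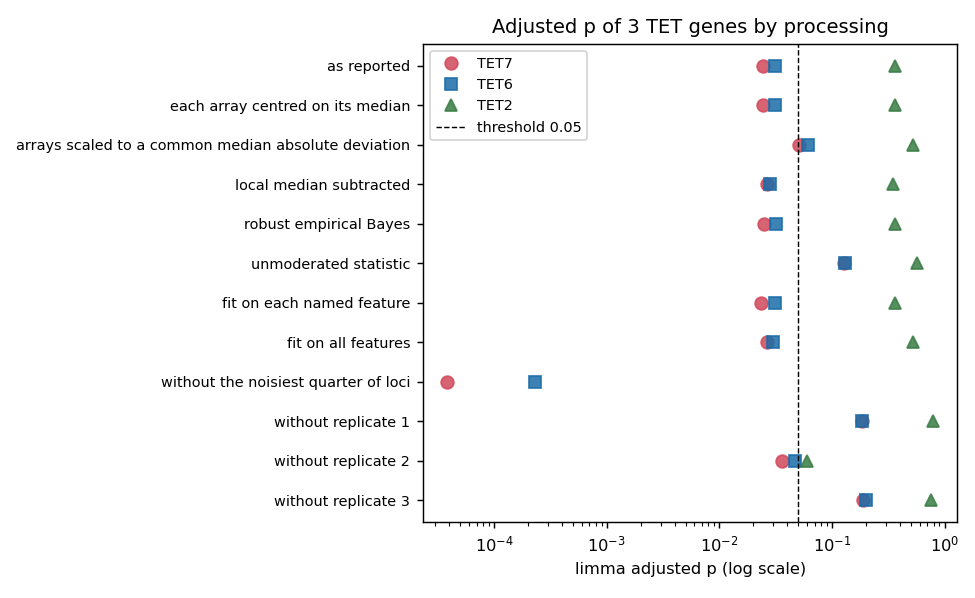
Limma adjusted p (horizontal axis, log scale) of TET7 (red circles), TET6 (blue squares) and TET2 (green triangles) as reported and under each alternative processing (rows), with the threshold of 0.05 as a dashed line; the unmoderated row uses the plain statistic. TET7 and TET6 lie left of the line as reported, and right of it with scaled arrays, with the unmoderated statistic and without replicate 1 or 3. With row numbers as given, where other features stand for the genes, the limma adjusted p was 0.29 for TET7. TET6 had 0.0251 there, as lower in hy5-1. TET2, which has no point where the loci of highest SD were left out, lies right of the line throughout.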

How the data were processed

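The deposited table holds a ratio of the 2 channels, read as log2, for 45220 features on each of 3 arrays. The labels give the dyes. How the authors normalised the values, the base of the logarithm and the numerator are not stated in the labels or the table. Base 2 was assumed, and the largest absolute value of 5.09 does not settle it. Each array averaged 0. Values were used as deposited.

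Of the features, 7440 were named, each with 1 gene, through the supplied platform annotation, and all 7234 loci matched the RefSeq table by gene ID. Features of a locus were averaged. Means were tested against 0 with limma 3.58.1 in R 4.3.3 (intercept, empirical Bayes, 3.04 prior beside 2 residual degrees of freedom), adjusted by Benjamini-Hochberg over all loci, threshold 0.05. The fit was also run on simulated data with independent arrays of equal spread, unlike these arrays, and no result above rests on that run. The number of arrays limits the precision, and intensities were not used here. The tetraspanin genes, the gene lists and the tests were chosen with earlier results of these data known. All TET genes, the measured members of the lists and the 3 loci nearest to each TET gene past the threshold are named; chromosomal neighbours and the pair TET7 and TET9 were added after their values were seen. Of 66 listed loci, 14 without a matching RefSeq name were left out. Alternatives covered centring, scaling, local correction, moderation, the unit tested, a filter on noisy loci, each replicate and the feature order.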

Additional observations from a re-analysis of the deposited data

How the results depend on the processing

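The count of all loci past the threshold (1242, with 570 higher and 672 lower in hy5-1) and that of TET genes (2, both higher, 0 lower) stayed within 1.5 times under median centring, local correction, robust moderation, the fit per feature and the fit on all features. With the same median absolute deviation on all arrays, 391 loci (166 higher, 225 lower) and 0 TET genes passed, with 2 TET genes at an unadjusted limma p under 0.05. The unmoderated statistic passed 0 loci and 0 TET genes, with 1625 loci and 3 TET genes at an unadjusted p under 0.05; loci with equal values on all arrays (2) got no p there. Without the loci of highest SD (5426 tested), 2325 loci (1249 higher, 1076 lower) and 2 TET genes passed. TET2 was removed by this filter, which lowers the common spread by construction. Leaving out 1 array gave 0 to 1380 loci (0 to 655 higher, 0 to 725 lower) and 0 to 2 TET genes by limma, with 0 without replicate 1 and without replicate 3, where 1613 and 1585 loci, and 2 TET genes each time, had an unadjusted p under 0.05. The median of the TET means, 0.147, was 0.121 with local correction and 0.115 to 0.135 with an array left out. With row numbers as given, other features stand for the genes: 491 loci passed (242 higher, 249 lower), with 0 TET genes higher and 1 lower, and the median was 0.0683. There TET6 had -0.643 (limma adjusted p = 0.0251), TET7 -0.297, TET3 0.21 and TET14 0.113, all opposite in sign. With an array left out, TET3 ran from -0.105 to 0.155 and TET10 from -0.05 to 0.075, both turning without replicate 2. For the changes under scaling, without moderation and without an array, the cause was not tested. No paired analysis was possible because no second group of ratios exists to pair with; the test of ratios against 0 is itself a comparison of hy5-1 and Ler within arrays. Without intensities, dim spots could not be identified.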
